A study of Homo sapiens with 9 samples.

Results

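Gene expression was compared between 3 K562 clones carrying the P95H substitution in SRSF2 (P9, P15 and P38) and 3 K562 clones with wild-type SRSF2 (W19, W36 and W42), which are 6 of the 9 RNA libraries of the series. K562 is an erythroleukaemia line derived from chronic myeloid leukaemia, and the series was set up to study splicing in CRISPR clones with mutant or unmutated SRSF2. The parental line, the wild-type clone W33 and the P95H clone P22 make up the other 3 libraries. All clones were derived by CRISPR from K562, so the wild-type clones share that derivation, and the labels list no treatment. Each clone is 1 library. Whether the clones of a group arose from independent edits is not given by the labels, so p-values measure only the spread between these clones. The labels do not state whether the substitution is on every copy of the gene.

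W33 and P22 were left out because their own values placed them far from their groups. Distance was the root mean square log2 difference over 15567 genes, and each clone was set against the other 3 clones of its label. W33 stood at a mean of 0.703 from the other wild-type clones, against 0.477 for W19, 0.491 for W36 and 0.548 for W42. P22 stood at 0.683 from the other P95H clones, against 0.574 for P9, 0.576 for P38 and 0.638 for P15, the value nearest to it among the clones kept. Because the clones were chosen by the same measurements that are compared, the spread within groups is narrowed by the choice, and the p-values below describe these 6 clones. The common biological coefficient of variation was 19.5% in the 6 clones and 26.3% in all 8. Within the 6, P38 lay 0.411 to 0.472 from the wild-type clones, closer than its 0.489 and 0.604 from P9 and P15. P9 lay 0.538 to 0.553 from the wild-type clones and 0.565 from P15. P15 lay 0.563 to 0.634 from the wild-type clones. The 3 P95H clones kept were thus not all closer to each other than to the wild-type clones.

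SRSF2 is a serine- and arginine-rich protein that binds exonic enhancers and promotes exon inclusion, and substitutions of its proline 95 recur in myelodysplastic syndromes and chronic myelomonocytic leukaemia. K562 cells are arrested early in the erythroid lineage, express embryonic and fetal globins with little adult β-globin, and can be pushed toward haemoglobin production by several inducers. As red cells mature, GATA1 and KLF1 activate genes for globins, haem synthesis and the spectrin-based membrane skeleton.

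Between 25208033 (P9) and 32351553 (P15) reads were assigned to genes in the 6 libraries, and gene levels are given as CPM, read counts scaled to a common library total with trimmed mean of M values (TMM) factors. A floor of 3 counts amounted to 0.0927 to 0.119 CPM in these libraries and reflects counting error alone. The erythroid identity given by the labels could be read in all 6 libraries: the fetal globin HBG2 stood at 1133 to 3031 CPM, the erythroid factor GATA1 at 216 to 256 CPM, and the adult globin HBB at 0.184 to 1.26 CPM. Of 18 lymphoid markers, 7 passed the filter on low counts and 4 of these had a log2 difference above 0, and the summed levels of the 7 were 17.7 to 20.7 CPM in wild-type clones and 9.97 to 27.3 CPM in P95H clones.

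SRSF2 (chromosome 17) stood at 501 CPM in W19, 511 CPM in W36 and 502 CPM in W42, and at 443 CPM in P9, 460.0 CPM in P15 and 583 CPM in P38. The wild-type clones lay between P15 and P38, so the groups overlapped. The log2 difference was -0.03 (edgeR adjusted p = 0.927), and its sign turned when W33 was added (0.01). A gene-level count cannot show a single substitution and does not check the genotype labels. If the reads were unstranded, those in exons shared by SRSF2 and its antisense neighbour MFSD11 could not be told apart.

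Among 18249 genes tested, 5 passed an adjusted p of 0.05: HBD, TNRC6C-AS1, HBBP1, ADD2 and CA1. All 5 were higher in the P95H clones, and they made up 0.0274% of the genes tested. They encode a globin chain and a globin pseudogene, a membrane skeleton protein, an erythroid carbonic anhydrase, and an RNA antisense to TNRC6C. At an unadjusted p under 0.05 there were 2446 genes (13.4%), 1383 of them (7.58%) higher and 1063 (5.82%) lower in P95H clones. The groups did not overlap in 3770 genes (20.7%), of which 1966 (10.8%) were higher and 1804 (9.89%) lower. Over all genes tested the median log2 difference was 0.01 and 51.0% lay above 0. DESeq2 called 465 genes (2.55%, with 1.66% higher and 0.888% lower) and limma-voom 30 genes (0.164%, with 0.137% higher and 0.0274% lower), and 28 of the 30 were also called by DESeq2. With W33 and P22 included, edgeR called 0 of 18173 genes at the adjusted threshold, with 2130 (11.7%) at an unadjusted p under 0.05, while DESeq2 called 261 (1.44%) and limma-voom 59 (0.325%), and 3 of the 5 genes were among the calls of each.

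HBD encodes δ-globin, the minor adult β-like chain of haemoglobin A2. It stood at 4.75 CPM in W19, 5.36 CPM in W36 and 5.44 CPM in W42, and at 18.0 CPM in P9, 17.1 CPM in P15 and 16.3 CPM in P38. The lowest P95H clone was thus far above the highest wild-type clone, and both groups were narrow. HBD rose from 5.18 ± 0.38 CPM (SD, n = 3) to 17.2 ± 0.864 CPM (n = 3), a log2 difference of 1.72 (SE 0.13, edgeR adjusted p = 0.0174). In the libraries left out the pattern did not hold: P22 had 3.09 CPM, below every other library, W33 had 7.40 CPM and the parental line 7.52 CPM. With all 8 clones the log2 difference was 1.23 (adjusted p = 0.359).

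The window of 250 bases upstream of the HBD start, read from RefSeq on GRCh38.p14 at chr11:5234484-5234733 on the minus strand, is shown because HBD had the lowest p of all genes. Capitals mark a CCAAT and a TTATC, the latter being GATAA, the core bound by GATA factors, on the other strand.
HBD: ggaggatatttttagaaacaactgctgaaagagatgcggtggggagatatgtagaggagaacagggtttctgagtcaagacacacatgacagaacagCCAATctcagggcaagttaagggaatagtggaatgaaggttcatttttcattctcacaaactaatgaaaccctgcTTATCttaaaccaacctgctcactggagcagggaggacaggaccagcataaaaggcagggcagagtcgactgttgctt

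HBBP1, the transcribed pseudogene between the fetal and adult β-like globins, rose with HBD. It stood at 5.73 CPM in W19, 6.98 CPM in W36 and 6.29 CPM in W42, and at 20.1 CPM in P9, 19.4 CPM in P15 and 15.8 CPM in P38. No wild-type clone came near the lowest P95H clone, P38. The log2 difference was 1.54 (SE 0.15, adjusted p = 0.0268). HBBP1 shares 88 exonic bases with HBD in the annotation used for names, so the pair is not fully independent. P22, at 5.94 CPM, lay inside the wild-type range, and W33, at 9.57 CPM, between the groups.

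ADD2 encodes β-adducin, which caps actin filaments and joins them to spectrin in the red cell membrane skeleton. Wild-type clones had 55.2, 49.6 and 61.1 CPM (W19, W36, W42) and P95H clones 108, 121 and 125 CPM (P9, P15, P38), with no overlap. ADD2 rose by a log2 difference of 1.09 (SE 0.11, adjusted p = 0.0268). W33 and P22 had 73.7 and 65.0 CPM and the parental line 73.6 CPM, so these 3 libraries lay close to each other, between the groups. The window upstream of the outermost of 2 ADD2 starts listed by RefSeq (GRCh38.p14, chr2:70768201-70768450, minus strand) follows for comparison with HBD. Its capitals mark GGGTG, the reverse complement of the CACCC bound by KLF1-type factors.
ADD2: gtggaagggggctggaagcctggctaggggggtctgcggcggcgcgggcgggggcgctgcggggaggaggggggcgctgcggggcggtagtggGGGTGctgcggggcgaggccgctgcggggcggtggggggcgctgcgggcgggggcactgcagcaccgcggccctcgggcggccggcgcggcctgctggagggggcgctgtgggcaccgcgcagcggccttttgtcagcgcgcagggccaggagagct

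CA1 encodes carbonic anhydrase 1, an abundant enzyme of mature red cells. It was nearly silent in the wild-type clones, with 0 CPM in W19, 0.129 CPM in W36 and 0.0735 CPM in W42, levels at or near the floor. The P95H clones had 2.56 CPM (P9), 3.15 CPM (P15) and 3.59 CPM (P38). In reads, 6 over the 3 wild-type clones stood against 275 over the 3 P95H clones. The fitted log2 difference of 5.39 (SE 0.53, adjusted p = 0.0268) depends on the prior count and is no bound. Both left-out clones lay between the groups, W33 at 0.851 CPM and P22 at 1.30 CPM, and so did the parental line at 0.518 CPM.

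TNRC6C-AS1 is a noncoding RNA antisense to TNRC6C, whose product is a scaffold that recruits deadenylases to Argonaute-bound mRNAs. The antisense RNA stood at 18.7, 14.5 and 14.2 CPM in W19, W36 and W42, and at 51.5, 44.8 and 41.3 CPM in P9, P15 and P38. It rose by a log2 difference of 1.54 (SE 0.15, edgeR adjusted p = 0.0268). TNRC6C itself had 9.35, 7.62 and 7.43 CPM against 20.4, 17.7 and 16.9 CPM in the same order, a log2 difference of 1.17 (adjusted p = 0.0749). Neither gene's groups overlapped. If the reads were unstranded, those in exons shared by the sense and antisense genes could not be separated. TNRC6C-AS1 also overlaps TMC6 on its own strand. The left-out clones kept the order of their labels, with 33.4 CPM of TNRC6C-AS1 in P22 and 20.1 CPM in W33. The 13 genes listed for TNRC6 and Argonaute proteins had a median log2 difference of 0.04. At an unadjusted p under 0.05, 3 of the 13 were higher and 0 lower, against 7.58% and 5.82% of all genes tested. These were TNRC6C-AS1, TNRC6C and AGO4, an Argonaute gene with a mean of 19.7 CPM in wild-type clones and 26.3 CPM in P95H clones.

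**Figure D1:**
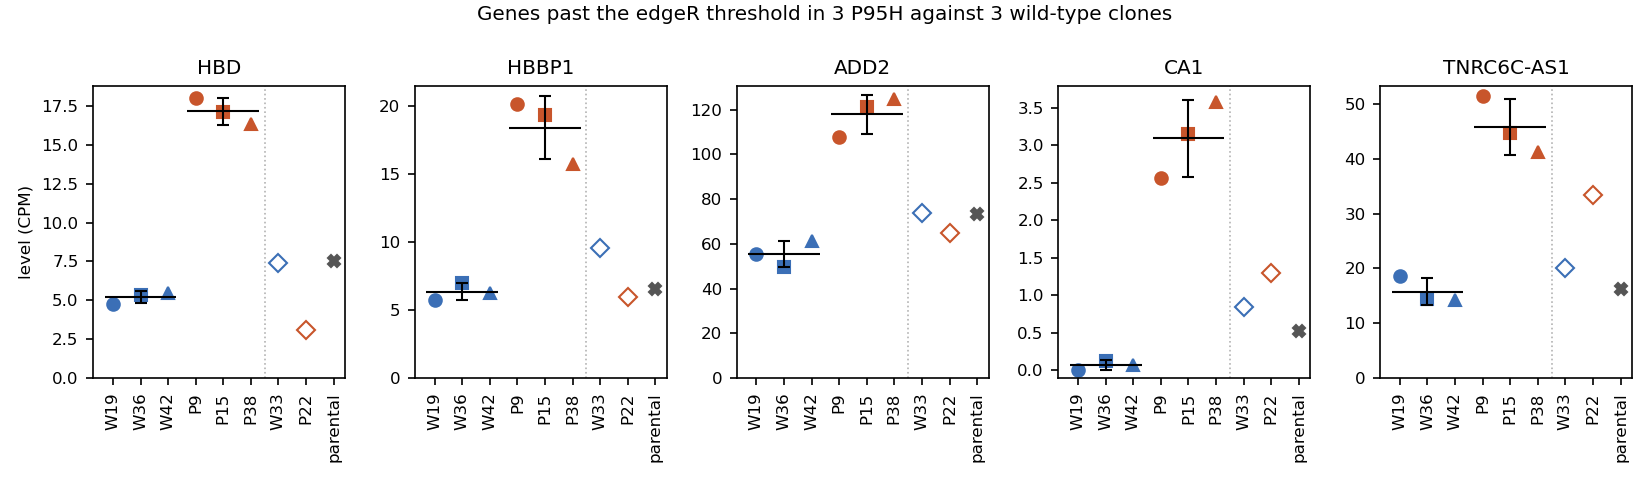
Levels (CPM, linear axis) of the 5 genes past the adjusted threshold, 1 point per library, with a line and bar for the mean ± SD of each group of 3 clones and open symbols for W33 and P22, which were left out. In all 5 genes the 3 P95H clones kept lie above the 3 wild-type clones, while P22 lies at 3.09 CPM for HBD, below every wild-type clone.

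Across the libraries that the fit did not use, W33 was nearer the wild-type mean in 4 of the 5 called genes, the parental line in 5 and P22 nearer the P95H mean in 2 (TNRC6C-AS1 and CA1). P22 was above W33 in those same 2 genes. Over the 3770 genes whose groups did not overlap, P22 minus W33 had the sign of the 6-clone difference in 63.8%, against 56.5% of all genes tested. P22 was nearer the P95H mean in 59.9% of the 3770, against 54.1% of all genes tested, and W33 in 39.1% against 44.8%. The parental line was nearer the P95H mean in 29.7% of the 3770, against 38.5% of all genes tested. With all 8 clones the groups did not overlap in 8.44% of the genes tested.

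Beyond these 5, the 12 protein-coding genes of lowest p in each direction, without overlap between groups and averaging 1 CPM or more, were examined. With HBD, ADD2 and CA1 among the 12 higher genes, the called genes and these lists held 26 genes in all. None of the other 21 passed the edgeR threshold, and their adjusted p-values ran from 0.0691 to 0.124. DESeq2 called all 26 in the 6 clones, against 2.55% of all genes tested, and limma-voom called 16 of them, against 0.164%. In the 8 clones DESeq2 called 16 of the 26, against 1.44% of all genes tested. The 26 were picked by low p in the same counts, so these calls are no independent check.

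The higher genes outside the called set ranged from nearly silent to highly expressed. MYL4, an embryonic and atrial myosin light chain, had 57.8 to 77.6 CPM against 115 to 146 CPM. For MYL4 both left-out clones and the parental line, at 119.8 CPM in W33, 152 CPM in P22 and 123 CPM in the parental line, lay in or above the P95H range. SERPINC1, the gene of antithrombin, had 0.183 to 0.368 CPM in wild-type clones and 1.43 to 2.41 CPM in P95H clones. RFPL4B, a RING-finger family member, had at most 0.146 CPM in a wild-type clone and 1.99 to 2.95 CPM in P95H clones, so its fitted difference also rests on reads near the floor.

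The remaining higher genes were moderately or highly expressed. OAT, the mitochondrial ornithine aminotransferase, had 229 to 241 CPM in wild-type clones and 350.5 to 423 CPM in P95H clones, with P22 at 309 CPM and W33 at 236 CPM. CTSZ, the lysosomal cathepsin Z, had 118 to 136 CPM against 194 to 215 CPM. For CTSZ the parental line had 219 CPM and W33 191 CPM, so both lay near the range of the P95H clones. C6orf48, a small nucleolar RNA host gene, had 131 to 159.7 CPM against 229 to 268 CPM, and CHST2, a sulfotransferase of the Golgi, 38.4 to 41.1 CPM against 64.5 to 89.5 CPM.

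The 12 lower genes came from several functional classes. ADGRE5, the adhesion receptor CD97, was among the tightest, with 44.9, 46.2 and 44.8 CPM in W19, W36 and W42 and 29.1, 29.5 and 30.4 CPM in P9, P15 and P38. ITSN1, an endocytic scaffold, had 32.9 to 36.04 CPM against 18.5 to 20.9 CPM, and P22 exceeded every library at 45.003 CPM. NQO1, a quinone reductase under control of NRF2, had 80.3 to 87.9 CPM against 48.7 to 58.7 CPM. Here again P22 had the highest level of all clones, 118 CPM, and the parental line had 107 CPM. TMEM145 behaved differently, since P22 (3.64 CPM) lay inside the P95H range of 3.52 to 3.77 CPM and W33 (10.98 CPM) above the wild-type range of 7.41 to 8.20 CPM.

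GJC1, which encodes the gap junction protein connexin 45, had the lowest P95H levels relative to wild type of these genes. It stood at 14.1, 11.9 and 5.70 CPM in W19, W36 and W42 and at 1.99, 2.15 and 1.54 CPM in P9, P15 and P38, a log2 difference of -2.48 (adjusted p = 0.0749). W33 had 11.1 CPM and P22 0.242 CPM, which kept the order of the labels, but the parental line had 2.56 CPM, near the P95H clones. ALG8, a glucosyltransferase of N-glycan assembly, had 88.4 to 95.8 CPM against 45.8 to 61.6 CPM, and the zinc finger gene ZNF32 19.3 to 22.3 CPM against 9.76 to 12.7 CPM. COL6A5, FAM19A2, HYLS1, SLC4A11 and RPL39L completed the list. RPL39L, at a mean of 13.8 CPM against 7.23 CPM, is a near copy of RPL39, and its reads are uncertain.

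**Figure D2:**
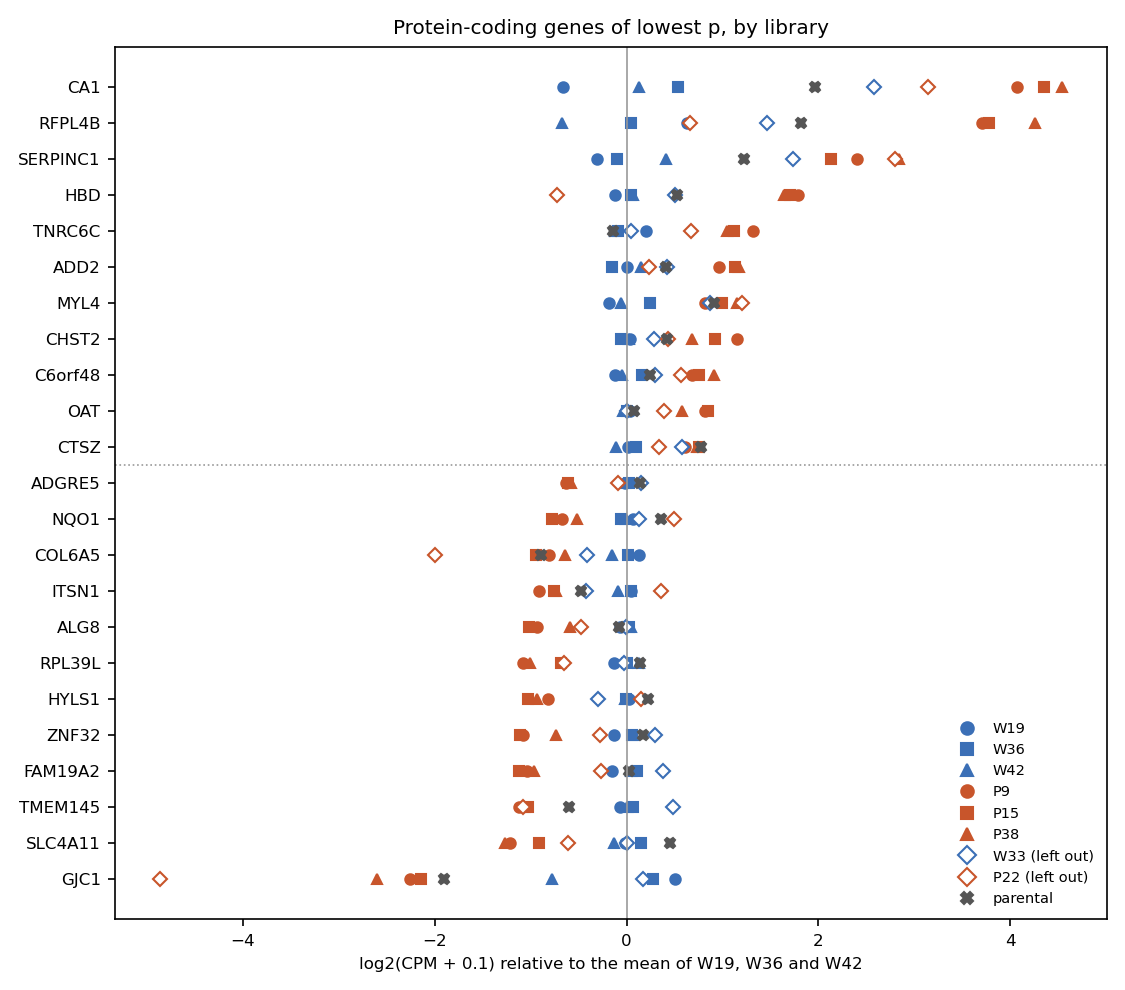
Log2 difference of every library from the mean of the 3 wild-type clones kept (from CPM plus 0.1) for the protein-coding genes of lowest p in each direction, 11 higher and 12 lower, with wild-type clones in blue, P95H clones in red, left-out clones as open symbols and the parental line as a cross. The 3 P95H clones lie on 1 side for each gene, while P22 lies on the other side for genes such as ITSN1, NQO1 and HBD.

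The β-like globins on chromosome 11 were higher in the 3 P95H clones kept along the whole locus, but these clones differed most in the embryonic gene. HBE1, the embryonic ε-globin, had 124, 59.5 and 78.2 CPM in W19, W36 and W42 and 1393, 843 and 196 CPM in P9, P15 and P38. P9 and P15 were thus far above P38, and the wide spread left the log2 difference of 3.21 at an adjusted p of 0.216. HBG2, the major fetal γ-globin of these cells, had 1133, 1186 and 1725 CPM against 2618, 3031 and 2521 CPM (log2 1.01, adjusted p = 0.13). HBG1, its near-identical copy, for which uniquely placed reads are uncertain, gave a log2 difference of 1.04. The left-out clones reversed the order of their labels. HBG2 had 1119 CPM in P22, below every wild-type clone, and 2158 CPM in W33, and HBG1 had 450 and 824 CPM. With all 8 clones the log2 differences of HBG2 and HBG1 were 0.56 and 0.60 (edgeR adjusted p = 0.506 and 0.489). BGLT3, a noncoding RNA between the fetal genes and HBBP1, had 6.52 to 8.90 CPM against 16.6 to 19.5 CPM (adjusted p = 0.0749). HBB, the adult β-globin, remained at 1.26 CPM or less in all 6 clones.

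Per kilobase of exon, HBG2 was the most abundant of these globins in both groups, at a mean of 1552 CPM in wild-type clones and 3134 CPM in P95H clones. The HBE1 mean was 843 CPM per kilobase in the P95H clones, where it was carried by P9 and P15, and 90.7 CPM per kilobase in wild-type clones. HBG1 had means of 639 and 311 CPM per kilobase in the same order. HBD stood at 4.08 and 13.5 CPM per kilobase in the wild-type and P95H clones. The gene with the lowest p was therefore a minor part of the β-like globin RNA.

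The α-like globins on chromosome 16 did not follow as a block. HBZ, the embryonic ζ-globin, had 84.2, 73.7 and 57.5 CPM against 226, 687 and 201 CPM, with no overlap (log2 2.37, adjusted p = 0.21), but W33 reached 579 CPM. HBA1 had 36.5 to 48.6 CPM in wild-type clones and 34.0 to 84.6 CPM in P95H clones, and HBA2 40.4 to 52.7 CPM against 38.7 to 88.5 CPM, so both overlapped. Their log2 differences of 0.35 and 0.37 turned to -0.13 and -0.05 without P15 and to -0.55 and -0.63 with all 8 clones. AHSP, the chaperone of free α-globin, had 11.98, 18.6 and 4.23 CPM against 84.4, 25.8 and 55.7 CPM.

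**Figure D3:**
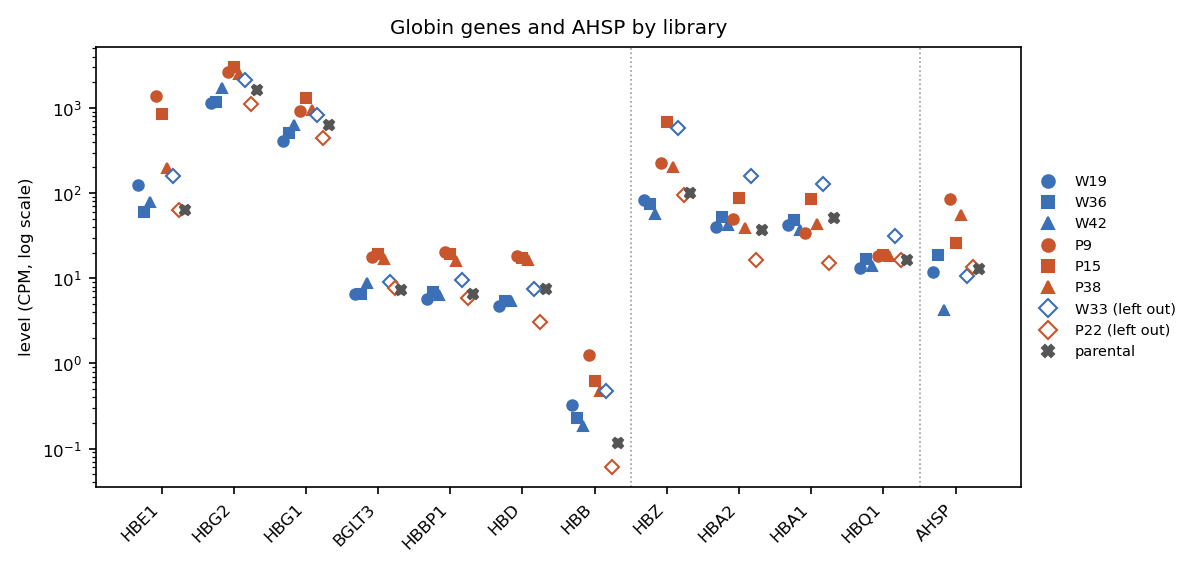
Levels (CPM, log axis) of the globin genes in each library, ordered by locus, with the kept wild-type and P95H clones, the left-out clones and the parental line marked. HBE1 spans 196 to 1393 CPM among the 3 P95H clones while HBD spans 16.3 to 18.0 CPM.

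The globin list had 12 genes, of which 11 passed the filter on low counts. All 11 had a log2 difference above 0, at a median of 1.54, and 9 of them did not overlap, against 10.8% of all genes tested that were higher without overlap. This list holds 2 of the genes that were called. The 6 of the 11 that are on chromosome 11 sit in 1 locus and are not independent. The median of the 5 on other chromosomes was 0.37. Set against the mean of the 3 wild-type clones, the list median reached 1.66 in P9, then 1.37 in P15 and finally 0.93 in P38, compared with -0.24 in P22 and 0.80 in W33. In the 8-clone fit the median was 0.60.

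Of 15 haem synthesis genes, all of them tested, 14 lay above 0 (median log2 0.36), and 7 were higher and 1 lower at an unadjusted p under 0.05, against 7.58% and 5.82% of all genes tested. None passed the adjusted threshold. ALAS2, the erythroid enzyme of the first step, had 52.4, 17.8 and 20.3 CPM in wild-type clones and 189.9, 733 and 114 CPM in P95H clones. P15 was far above the others, and the adjusted p was 0.225. PPOX, which acts late in the pathway, was tighter at 43.9 to 50.1 CPM against 71.0 to 89.0 CPM (log2 0.78, adjusted p = 0.0749), and UROS had 15.6 to 16.5 CPM against 26.1 to 36.6 CPM (log2 0.94, adjusted p = 0.0754). P22 had 34.9 CPM of PPOX, below all wild-type clones, and 21.1 CPM of UROS, between the groups. W33 had 60.4 CPM of PPOX, between the groups, and 26.2 CPM of UROS, inside the P95H range. FLVCR1, reported to export haem, was instead lower in P95H clones, with 34.6 to 39.7 CPM against 24.8 to 28.9 CPM. The list median was 0.28 in W33 and -0.27 in P22, against 0.37 in P9, 0.31 in P15 and 0.24 in P38.

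Of 33 genes listed for the red cell membrane and skeleton, 31 were tested and 27 of these lay above 0, at a median of 0.54, with 14 higher and 0 lower at an unadjusted p under 0.05 (7.58% and 5.82% of all genes tested) and 1 called (ADD2). EPB42, the band 3 anchor protein 4.2, had 0.803 to 0.936 CPM against 2.24 to 3.13 CPM (log2 1.54, adjusted p = 0.0821). AQP1, a channel through which water crosses the red cell membrane, had 8.36, 4.81 and 6.10 CPM in W19, W36 and W42 and 28.98, 67.3 and 24.8 CPM in P9, P15 and P38. Here P22, at 27.5 CPM, lay inside the P95H range and W33, at 13.7 CPM, near the parental line (13.0 CPM). The list median was 1.01 for P15 but 0.18 in P9 and 0.21 in P38, and in 8 clones it was 0.27.

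The AQP1 upstream window (RefSeq, GRCh38.p14, chr7:30911603-30911852, plus strand) is shown because P22 sided with the P95H clones for this gene. Its TATAAA lies 30 bases before the start, and neither CCAAT nor GATAA was found in it on either strand.
AQP1: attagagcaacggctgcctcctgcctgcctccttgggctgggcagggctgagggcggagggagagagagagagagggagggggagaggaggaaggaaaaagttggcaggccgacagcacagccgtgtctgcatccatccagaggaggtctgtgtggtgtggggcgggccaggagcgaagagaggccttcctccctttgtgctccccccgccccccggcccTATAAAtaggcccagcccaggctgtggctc

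Motifs were searched on both strands in windows of 250 bases upstream of each start, and no match overlapped another in the windows printed here. Across 35116 such windows of all genes in the table, GATAA occurred in 20.4%. CACCC occurred in 54.7% of them, CCAAT in 32.0% and TATAAA in 10.7%. Windows were found for 7 of the genes higher in P95H clones and 6 of the lower genes. Among the 11 windows of the higher genes the shares were 18.2%, 45.5%, 36.4% and 9.09% in the same order. Among the 7 windows of the lower genes they were 14.3%, 71.4%, 28.6% and 0%. A match describes letters only and shows no binding.

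Other erythroid groups had smaller shifts. Among 23 of 24 erythroid transcription factor genes that were tested, 17 lay above 0, against 51.0% of all genes tested, with a median of 0.13. In the 8-clone fit 13 of the 23 lay above 0. In the 6 clones 7 were higher and 0 lower at an unadjusted p under 0.05, against 7.58% and 5.82% of all genes tested. KLF1, the activator of adult globin and red cell genes, had 76.4 to 91.5 CPM against 118 to 137 CPM (log2 0.60, adjusted p = 0.12), with W33 highest of all at 149 CPM. HEMGN, a nuclear protein of erythroid precursors, had 105 to 129 CPM against 185 to 265 CPM, while P22 had 41.5 CPM. Of 16 carbonic anhydrase and red cell enzyme genes tested, 10 lay above 0 (median 0.22). At an unadjusted p under 0.05, 4 were higher and 0 lower, against the same shares, and CA1 was called. The median of this list was 0.39 in W33, against 0.15 in P9, 0.38 in P15 and 0.06 in P38. PKLR, the red cell pyruvate kinase gene, had 8.87, 9.01 and 11.3 CPM against 144, 64.1 and 33.5 CPM. In contrast, PKM, the pyruvate kinase gene of most other tissues, had 765 to 933 CPM against 477 to 635 CPM. Of 14 iron uptake and storage genes, 9 lay above 0 (median 0.07).

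**Figure D4:**
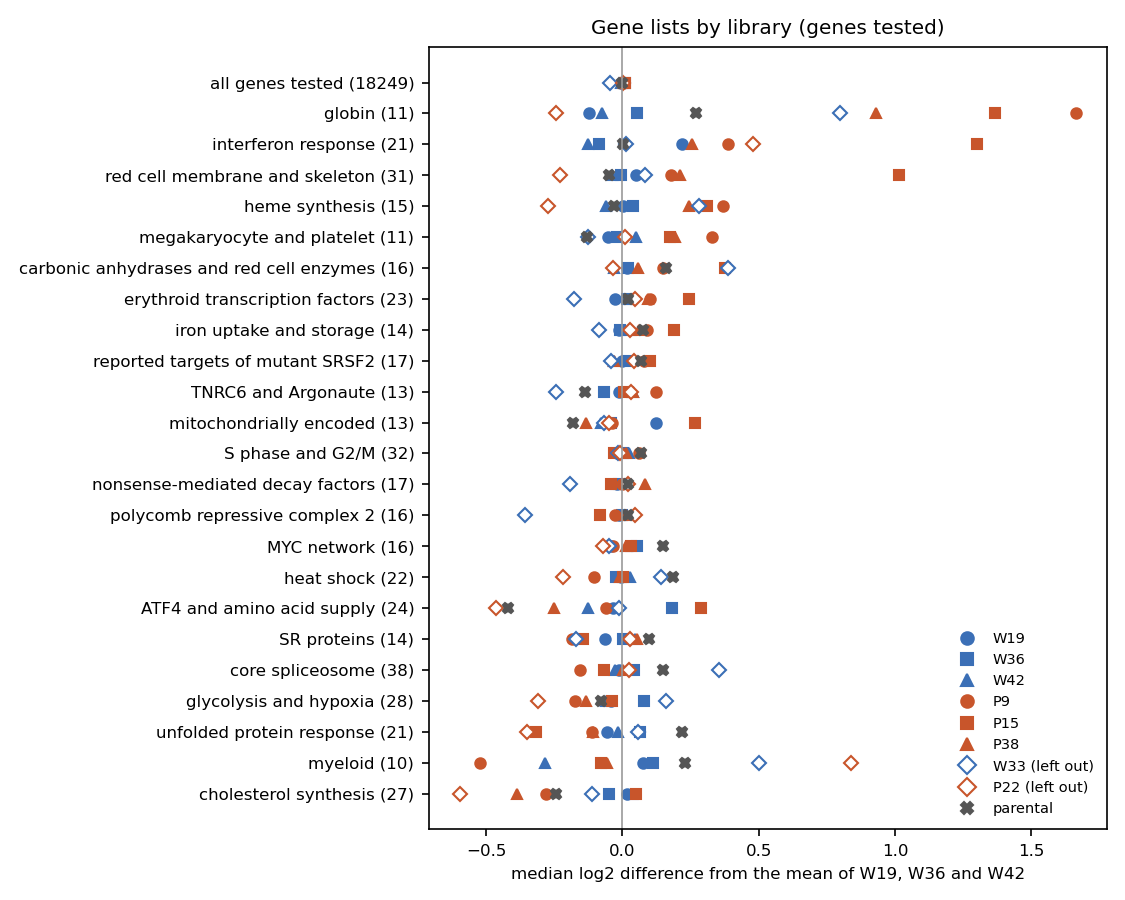
Median log2 difference from the mean of the 3 wild-type clones for each list with at least 10 genes tested (number in parentheses), 1 point per library, with all genes tested in the top line. The globin list lies at 1.66, 1.37 and 0.93 in P9, P15 and P38 and at -0.24 in P22.

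Interferon response genes that were tested, 21 of 33 listed, had a median of 0.83, with 17 above 0 and 8 higher and 0 lower at an unadjusted p under 0.05 (7.58% and 5.82% of all genes tested). P15 had the highest median (1.30), followed by P9 (0.39) and P38 (0.25). STAT2, a subunit of the interferon-activated transcription factor, had 32.5, 33.6 and 34.6 CPM against 80.7, 59.9 and 43.0 CPM, and IFIT3, an induced antiviral protein gene, had 1.80 to 3.04 CPM against 3.99 to 9.60 CPM. None passed the adjusted threshold.

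Several housekeeping pathways lay slightly below 0. Cholesterol synthesis genes had a median of -0.22, with 1 higher and 9 lower of 27 at an unadjusted p under 0.05, against 7.58% and 5.82% of all genes tested. The clones differed, with medians of -0.28 for P9, 0.05 for P15 and -0.39 for P38, and the parental line was at -0.24. DHCR7, the enzyme of the final step, had 108 to 118 CPM in wild-type clones and 73.1 to 92.1 CPM in P95H clones. The unfolded protein response list had a median of -0.14, with 2 higher and 6 lower of 21 against the same shares, and PDIA6, a disulfide isomerase of the endoplasmic reticulum, had 455 to 482 CPM against 323 to 402 CPM. Glycolysis and hypoxia genes had a median of -0.12, with 1 higher and 7 lower of 28 against the same shares.

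The splicing machinery moved little at the level of gene counts. Of 14 SR protein genes, 1 lay above 0, at a median of -0.08, and none had an unadjusted p under 0.05. In the core spliceosome list, 7 of 38 lay above 0 (median -0.08) and 0 were higher and 5 lower at that level, against 7.58% and 5.82% of all genes tested. U2AF2, which recognises the polypyrimidine tract, had 322 to 324 CPM against 259 to 277 CPM. For 17 genes reported as targets of mutant SRSF2 the median was 0.05, with 3 higher and 1 lower against the same shares. The 3 higher were FYN (log2 0.71), IDH2 (log2 0.70) and CSF3R (log2 1.23), with edgeR adjusted p-values of 0.170, 0.170 and 0.224. The 1 lower was EZH2, the polycomb methyltransferase gene, with 178 to 185 CPM against 138 to 163 CPM (log2 -0.24, adjusted p = 0.315). Nonsense-mediated decay factors (median 0.01), cell cycle genes (0.02) and mitochondrially encoded genes (0.03) lay near the median of all genes. ATF4 and amino acid supply genes (10 of 24 above 0), heat shock genes (9 of 22), polycomb genes (8 of 16) and MYC network genes (8 of 16) had medians of -0.04, -0.03, -0.000036 and -0.0042.

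Markers of other lineages moved in part with the comparison, and their part in the differences above was not tested. Of 24 megakaryocyte and platelet genes, 11 were tested and 7 lay above 0 (median 0.32), their summed level was 101 to 106 CPM in wild-type clones and 109 to 138 CPM in P95H clones, and TUBB1, the platelet tubulin gene, had 9.19 to 10.2 CPM against 16.3 to 28.7 CPM. PF4, PPBP and VWF, which define platelets, had 0 reads in all 6 clones. Of 21 myeloid markers, 10 were tested and 4 lay above 0 (median -0.18), with sums of 89.97 to 122 CPM and 69.3 to 103 CPM. At an unadjusted p under 0.05, 2 myeloid markers were higher and 3 lower, against 7.58% and 5.82% of all genes tested. CD33, a myeloid surface receptor, had 43.3 to 49.8 CPM against 29.3 to 39.4 CPM. CSF3R went the other way, with 0.846 to 1.71 CPM against 2.22 to 3.55 CPM. All 6 epithelial markers tested, of 10 listed, lay below 0 (median -0.56), and their sum of 828 to 1025 CPM in wild-type clones and 486 to 857 CPM in P95H clones included KRT8, which had 446 to 523 CPM against 195 to 421 CPM. KRT18 had 198 to 246 CPM against 132 to 208 CPM, while KRT5, KRT7 and KRT14 had 0 reads in all 6 clones. Fibroblast markers (3 of 4 tested above 0, of 12 listed) summed to 407 to 685 CPM and 339 to 586 CPM, and mast cell markers (2 of 4, of 12 listed) to 86.3 to 97.6 CPM and 68.9 to 105 CPM. FN1, the fibronectin gene, was the fibroblast marker with an unadjusted p under 0.05. It stood at 244, 79.2 and 107 CPM in W19, W36 and W42 and at 34.5, 67.2 and 14.7 CPM in P9, P15 and P38 (log2 -1.89, adjusted p = 0.305), and the parental line had 8.50 CPM, below all 6 clones.

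Genes of chromosomes 1 and 11 were marked because runs of neighbouring genes on them differed in single clones. Of 1791 genes tested on chromosome 1, none was called and 13.6% had an unadjusted p under 0.05. Of 1011 on chromosome 11, 2 were called (HBD and HBBP1) and 14.4% had an unadjusted p under 0.05. The share over the other chromosomes was 13.3%, with 3 calls among 15447 genes. In bins of 50 neighbouring genes, P9 had 12 of 24 chromosome 1 bins below -0.2 (lowest -0.64), and P15 had 9 of 14 chromosome 11 bins below -0.2 (lowest -0.72) and 5 above 0.2 (highest 0.61). P38 and the 3 wild-type clones kept had no bin below -0.2 on either chromosome. The left-out wild-type clone W33 had 13 of 24 chromosome 1 bins below -0.2 (lowest -0.76). On chromosome 11, W33 had 3 of 14 bins below -0.2 and 6 above 0.2. P22 had no bin below -0.2 on either chromosome.

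The β-globin locus lies in the chromosome 11 bin that was highest in P15, at 0.61, while the bin was at 0.10 in P9. HBD differed from the wild-type mean by log2 1.79 in P9, 1.71 in P15 and 1.64 in P38. Among the genes of lowest p, SERPINC1 is on chromosome 1 and ALG8 and HYLS1 on chromosome 11. The bin of ALG8 was at -0.60 in P15 and that of HYLS1 at -0.55. ALG8 itself stood at -0.93, -1.02 and -0.59 and HYLS1 at -0.82, -1.03 and -0.94 in P9, P15 and P38. With all genes of both chromosomes left out before scaling and adjustment, ADD2, CA1 and TNRC6C-AS1 passed. Whether the copy number of these chromosomes differs between the clones was not measured, and its part in these differences was not tested.

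**Figure D5:**
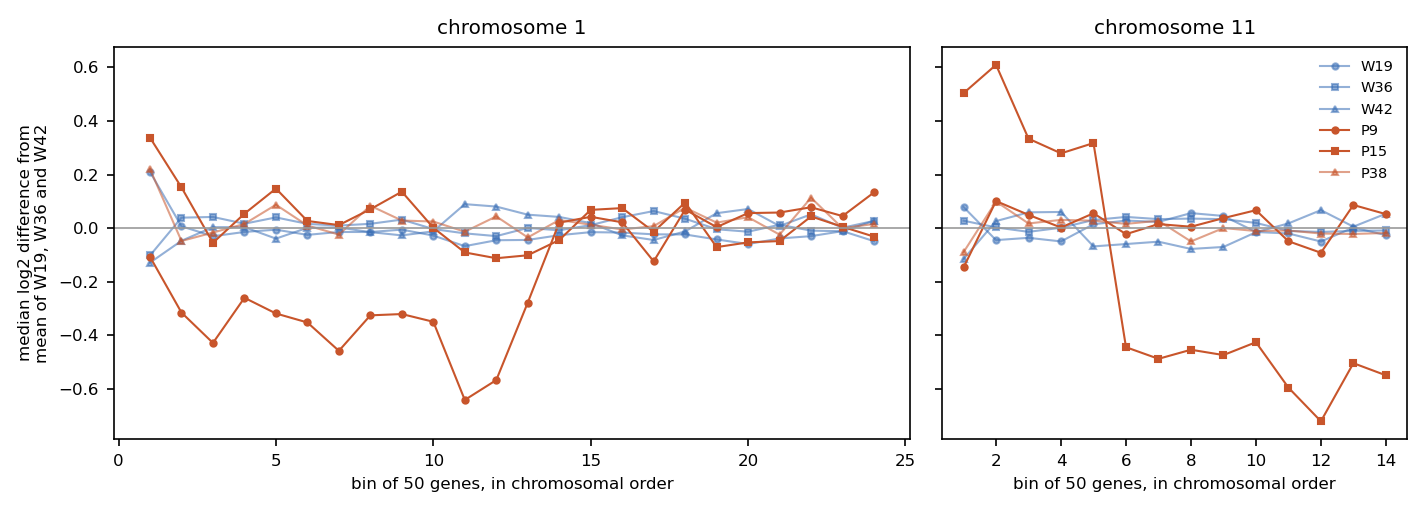
Median log2 difference from the mean of the 3 wild-type clones in bins of 50 genes in order along chromosomes 1 and 11, 1 line for each of the 6 clones. P9 falls to -0.64 on chromosome 1 and P15 spans -0.72 to 0.61 on chromosome 11, while P38 stays between -0.09 and 0.22.

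The calls depended on which clones were compared. Without W19, W36, W42 or P9, edgeR called 0 genes, with smallest adjusted p-values of 0.064, 0.140, 0.0897 and 0.0853 and 1692, 1391, 1732 and 2294 genes at an unadjusted p under 0.05. Without P15 it called 31 genes and without P38 137 genes, and in both cases these held all 5 of the genes above. Adding W33 alone or P22 alone left 0 calls, with smallest adjusted p-values of 0.0991 and 0.124 and 1958 and 2388 genes at an unadjusted p under 0.05. DESeq2 and limma-voom were not run on these subsets.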

How the data were processed

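The authors deposited 1 table of raw counts per library, with 1 count for each Ensembl gene ID and no normalization. Per the labels' protocols, polyadenylated RNA was made into libraries with a TruSeq RNA kit and sequenced on a HiSeq2000. Per the submitters' processing notes, the authors used bcl2fastq, TopHat2 2.0.4 and HTSeq 0.6.1p1 with GRCh37. Not given in the sources used here were the alignment settings, the overlap mode and the use of strand. Summary entries outside genes were left out, and 43.3 to 43.9% of listed reads in the 6 libraries were assigned. Symbols, chromosomes and gene order came from GENCODE 29 (GRCh38) by gene ID, which matched 52526 of 63677 IDs, and no coordinates of the counts are given. Upstream windows came from RefSeq.

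Counts were tested with edgeR 4.0.16 in R 4.3.3: filterByExpr, TMM scaling, a robust quasi-likelihood F test, and a threshold of 0.05 on p-values adjusted by Benjamini-Hochberg across the genes tested. The procedure was tested on simulated data. DESeq2 1.42.0 and limma 3.58.1 (voom with quality weights) were alternatives, with other scalings, filters, sets of clones and genes. Levels are CPM with TMM factors over 9 libraries. Lists, 27 with 550 entries, are described by counts and medians and had no test. The genes named are SRSF2, every gene called, the 12 protein-coding genes of lowest p in each direction (mean of at least 1 CPM, no overlap) and up to 4 genes of each list by p. The levels of GATA1 and the α-globins describe cell identity and locus. Some genes under this rule are counted but not reported here by name. The members and lists were chosen with earlier results of these data known.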

Additional observations from a re-analysis of the deposited data

Results flagged for a closer look

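With the left-out clones returned to their groups of 4, single clones were searched for values far from the other 3 of the group, relative to the group's whole range (Dixon's test). This was met in 9 of 54 groups, by P22 in 6 and by W33 in 3, in 8 genes. Chance alone gives such a gap in about 5% of groups when the genes are not selected. Apart from SRSF2, the flagged genes were chosen by low p in the 6 clones, which favours kept clones close together. The 5% therefore does not apply to them. P22 and W33 were also left out of the comparison because they stand apart, so the pattern follows from both choices.

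P22 was lowest among P95H clones for HBD, at 3.09 CPM against 16.3 to 18.0 CPM in the other 3. It was highest for 5 of the genes lower in P95H clones: ITSN1 at 45.003 CPM (others 18.5 to 20.9), ADGRE5 at 42.5 CPM (29.1 to 30.4), FAM19A2 at 7.39 CPM (4.05 to 4.52), NQO1 at 118 CPM (48.7 to 58.7) and HYLS1 at 7.97 CPM (3.46 to 4.01). W33 was lowest among wild-type clones for SRSF2, at 429 CPM (others 501 to 511), and for HYLS1, at 5.79 CPM (7.10 to 7.27). W33 was highest for CA1, at 0.851 CPM against 0 to 0.129 CPM.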

How the results depend on the processing

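The 5 calls, all higher in P95H clones, stayed 5 with RLE or upper quartile scaling, with 1 CPM in 3 libraries as the filter, without robust estimation and with the parental library as a group of its own, and numbered 4 when tested against a fold of 1.2 (glmTreat). The total was 151 with no filter (103 higher, 48 lower, 146 of them among genes passing the filter), 465 with DESeq2 (303 higher, 162 lower) and 30 with limma-voom (25 higher, 5 lower). It was 0 with all 8 clones, with W33 added and with P22 added, and 3, all higher, without chromosomes 1 and 11. Leaving out 1 clone gave 0 to 137 calls, 0 to 103 of them higher and 0 to 34 lower. In all 8 clones DESeq2 called 261 genes and limma-voom 59. Genes without overlap numbered 1534 in all 8 clones, 2376 with W33 added, and 4890 to 7095 with 1 clone left out, where smaller groups overlap less by construction. The cause of the other shifts was not tested.

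Log2 differences were followed for SRSF2, HBA1, HBA2 and the named genes with an unadjusted p under 0.05, and 13 of these values changed sign. SRSF2 was 0.037 with all 8 clones and 0.0099 with W33 added, and ran from -0.16 to 0.038 with 1 clone left out, turning without P9 or P15. SPI1 was 0.013 with P22 added. HBA1 was -0.55 with all 8 clones and -0.28 with W33 added, and ran from -0.13 (without P15) to 0.59 with 1 clone left out. HBA2 was -0.63 and -0.36, and ran from -0.045 (without P15) to 0.60. HBQ1 was -0.083 with all 8 clones and -0.051 with W33 added. Of the list medians, 468 were within the spread between clones and 45 moved beyond it. The DESeq2 and limma-voom fits of all 8 clones and the count of unfiltered calls among genes passing the filter were chosen after seeing the data. No paired analysis was possible because the clone numbers are not shared between the groups. Depth limits CA1, RFPL4B, SERPINC1 and HBB, whose wild-type levels lie near the floor.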
